A study of Mus musculus with 9 samples.

Results

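The DYRK family was followed through the testis transcriptome of Prm2-deficient mice. DYRKs are dual-specificity tyrosine-phosphorylation-regulated kinases, and the mouse genes are Dyrk1a, Dyrk1b, Dyrk2, Dyrk3 and Dyrk4. The members were chosen by gene name, and the family itself was chosen by measured values, since Dyrk1b was known from these libraries to separate Prm2-/- from Prm2+/+ testes. All 5 members were found among the 38685 genes and loci of the deposited table, and all 5 passed the filter on low counts that left 14893 genes for testing. Dyrk1b and Dyrk4 passed it through the libraries in which they were high.

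Total RNA came from testes of C57BL/6 males, freed of the tunica albuginea, and was read near the 3′ end of polyadenylated transcripts with QuantSeq. The males were wildtype (Prm2+/+), heterozygous (Prm2+/-) or homozygous deficient (Prm2-/-) for protamine 2, which packs DNA in the sperm head, with 3 males per genotype and no other allele or treatment named. The edited allele was made by CRISPR/Cas9 in oocytes and is carried in every cell of the animal. Ages of the RNA donors and the edited line they came from are not given in the sources used here, and p-values measure only the spread between these 9 libraries.

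A DYRK phosphorylates a tyrosine in its own activation loop while it folds, and the mature kinase then acts on serine and threonine of other proteins. DYRK1A and DYRK1B are mainly nuclear and are known for holding cells out of the cell cycle, through assembly of the DREAM repressor complex and turnover of D-type cyclins. DYRK2, DYRK3 and DYRK4 form the other class, which includes a scaffold of a ubiquitin ligase (DYRK2), a kinase that dissolves condensates (DYRK3) and a kinase known for its expression in testis (DYRK4).

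Recovered counts summed to between 3629929 and 4490411 per library. The transcript of Prm2 itself was not lower in the libraries labelled Prm2-/-, where it had 37810 ± 4344 normalized counts (SD, n = 3) against 33046 ± 5732 in Prm2+/+ (LFC 0.20 ± 0.13 SE, limma adjusted p = 0.746), so it did not serve as a check of the labels. Defining transcripts of germ cells were present in every library, with all 5 spermatocyte, all 4 round spermatid and all 5 elongating spermatid markers above 0 throughout. Summed markers overlapped between the genotypes in each of these classes and in Sertoli cells, where Amh was at 0 in all libraries. Epididymal epithelium markers summed to 34.3 to 36.4 normalized counts per library in Prm2+/+, 24.7 to 37.5 in Prm2+/- and 17.2 to 32.7 in Prm2-/-. These small sums did not overlap between Prm2-/- and Prm2+/+, and Lcn8 and Spint4 were at 0. In bulk testis RNA, fewer cells of a type and less RNA per cell cannot be told apart.

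Dyrk1b (ENSMUSG00000002409), a kinase of quiescent and differentiating cells, spans positions 28179469 to 28187294 of chromosome 7 (plus strand, GRCm38). No other annotated gene overlaps it. The end of Fbl, the gene of the nucleolar methyltransferase fibrillarin on the same strand, is 200 bp upstream of its start. The bases between both genes are shown because the transcript levels on either side of them differed so much in their spread among libraries. They read, 5′ to 3′ on the plus strand, from GRCm38.p6 as RefSeq gives it (chr7:28179270-28179468):

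Dyrk1b upstream: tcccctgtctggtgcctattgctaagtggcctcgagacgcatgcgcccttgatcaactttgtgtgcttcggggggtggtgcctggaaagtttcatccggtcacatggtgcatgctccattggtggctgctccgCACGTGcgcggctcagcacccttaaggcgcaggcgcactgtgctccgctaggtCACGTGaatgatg

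Capitals mark CACGTG, an E-box hexamer, which occurs 2 times in these 199 bases. For comparison, the stretch of 250 bases before the RefSeq start of Dyrk4, the other member whose Prm2-/- libraries did not overlap with Prm2+/+, reads on the minus strand (chr6:126921840-126922089):

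Dyrk4 upstream: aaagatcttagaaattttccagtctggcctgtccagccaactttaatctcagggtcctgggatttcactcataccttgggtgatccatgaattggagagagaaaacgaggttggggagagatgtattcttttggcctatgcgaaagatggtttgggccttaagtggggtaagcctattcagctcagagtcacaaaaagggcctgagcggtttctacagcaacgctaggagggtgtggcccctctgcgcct

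It holds none of the motifs searched and has a GC content of 49.2%, against 59.8% for the bases between Fbl and Dyrk1b. The motifs were CACGTG, the GC box GGGCGG, the CRE palindrome TGACGTCA and its core TGACG, which lies inside the palindrome, each on both strands and chosen after the data were seen. RefSeq gave 8 windows of 250 bases before a start for the 5 members. CACGTG was found in 1 of them (6.02% of all 32851 mouse windows) and GGGCGG in 5 (32.7% of all windows). The full windows of Dyrk1b, before each of its RefSeq starts, had GC contents of 56.8% and 77.6% and held GGGCGG 1 and 4 times. Neither TGACGTCA nor TGACG was found in a member's window (0 of 8), while 1.55% and 17.8% of all windows hold them. A match is a description of the letters in the window.

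The values of the members are those of loci assembled from the reads and matched to these genes. Whether the assembly or the assignment of reads to loci shaped them was not tested. Dyrk1b was either high or nearly absent. In Prm2+/+ it had 322, 333 and 421 normalized counts in replicates 1, 2 and 3. In Prm2+/- it had 4.94, 2.74 and 330 normalized counts. In Prm2-/- it had 4.53, 7.10 and 2.11 normalized counts. The 3 wildtype libraries and replicate 3 of Prm2+/- were thus high, and the other 5 libraries were low, with no value between 7.10 and 322. All Prm2-/- libraries lay below all Prm2+/+ libraries, whereas Prm2+/- overlapped with both. Replicates 1 and 2 of Prm2+/- were in the range of Prm2-/-, and replicate 3 in the range of Prm2+/+.

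**Figure D1:**
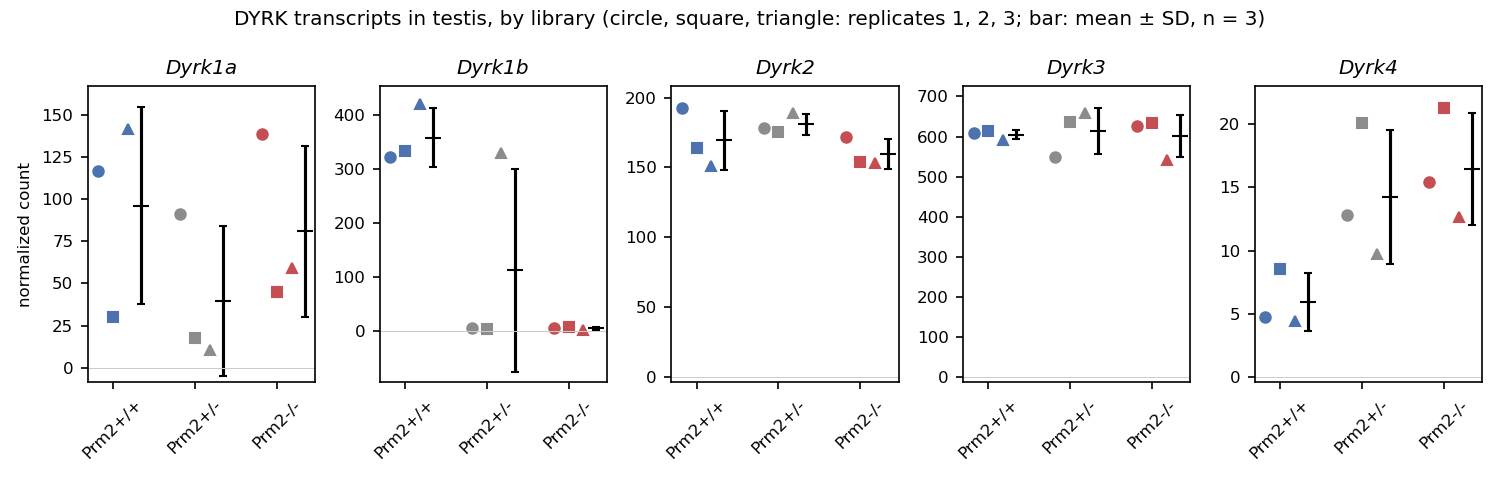
Normalized counts (vertical axis) of the 5 DYRK members in each testis library by genotype (horizontal axis), with circles, squares and triangles for replicates 1, 2 and 3 and bars for mean ± SD of 3 males. Dyrk1b is split between 4 libraries at 322 to 421 and 5 at 2.11 to 7.10, while Dyrk2 and Dyrk3 stay within a narrow range.

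The group means of Dyrk1b were 359 ± 54.1 in Prm2+/+, 113 ± 189 in Prm2+/- and 4.58 ± 2.50 in Prm2-/- (SD, n = 3). The mean of Prm2+/- describes none of its libraries. In recovered counts, Dyrk1b had 1031 in the 3 Prm2+/+ libraries together, 382 in Prm2+/- and 14 in Prm2-/-. The normalized ratio of Prm2+/+ over Prm2-/- was 77.4 (95% interval 45.9 to 142, exact binomial). This interval treats counts derived from coverage as reads, so it covers counting error only, and approximately. The fitted LFC of Prm2-/- against Prm2+/+ was -6.11 ± 1.49 (SE) after 1 was added to each normalized count and log2 taken, a scale that understates the change of low values. This contrast selected the gene, so its values are a description and no p-value is given. The LFC was -4.20 for Prm2+/- against Prm2+/+ and -1.91 for Prm2-/- against Prm2+/-, and without replicate 3 of Prm2+/- these became -6.24 and 0.14.

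The gap in Dyrk1b was wide, and few tested genes had one of that size. It lies between the Prm2-/- and Prm2+/+ libraries, whose separation chose the gene. Its size and its rank among tested genes are therefore descriptions only. When the 9 libraries were ordered by log2 of the normalized count plus 1, the largest step between neighbours was 5.32 for Dyrk1b. It was 0.76 for Dyrk1a, 0.74 for Dyrk4, 0.11 for Dyrk3 and 0.09 for Dyrk2. Of the 14893 tested genes, 2036 (13.7%) had a step of at least 2 log2 units, and 105 (0.705%) had a step of at least that of Dyrk1b. Among the 7095 tested genes that reached 100 normalized counts in any library, 784 (11.1%) had a step of at least 2.

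Other transcripts were ranked by their likeness to Dyrk1b, and how many shared its high and low libraries was not counted. The most alike tested genes over the 9 libraries were Rffl, a ubiquitin ligase gene (Pearson's r = 0.95), Dohh, which encodes deoxyhypusine hydroxylase (r = 0.92), and 1110004E09Rik (r = 0.91). These values are descriptions over libraries that share their scaling and counting. For Dyrk1b, 7 genes had r over 0.9, against 8 for Dyrk1a, 11 for Dyrk2, 8 for Dyrk3 and 6 for Dyrk4. Rffl had 157 to 318 normalized counts in Prm2+/+, 42.5, 53.9 and 305 in Prm2+/- and 49.6 to 67.0 in Prm2-/-. Its high libraries were the same 4 as for Dyrk1b. Dohh varied much less, from 91.5 to 152 normalized counts over all libraries.

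The opposite pattern was seen for Arl4d, a small GTPase gene (r = -0.997), Mrm1, a mitochondrial rRNA methyltransferase gene (r = -0.99), and Gtf2h5, which encodes a subunit of the repair and transcription factor TFIIH (r = -0.95). Arl4d was at 0 in the 4 libraries with high Dyrk1b and had 7.10 to 13.7 normalized counts in the other 5. Mrm1 was at 0 in the same 4 libraries and had 10.1 to 18.8 in the other 5. A count of 0 allows up to 3 counts, so the depth behind both genes is small. Gtf2h5 had 11.0 to 50.4 normalized counts where Dyrk1b was high and 164 to 249 where it was low.

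**Figure D2:**
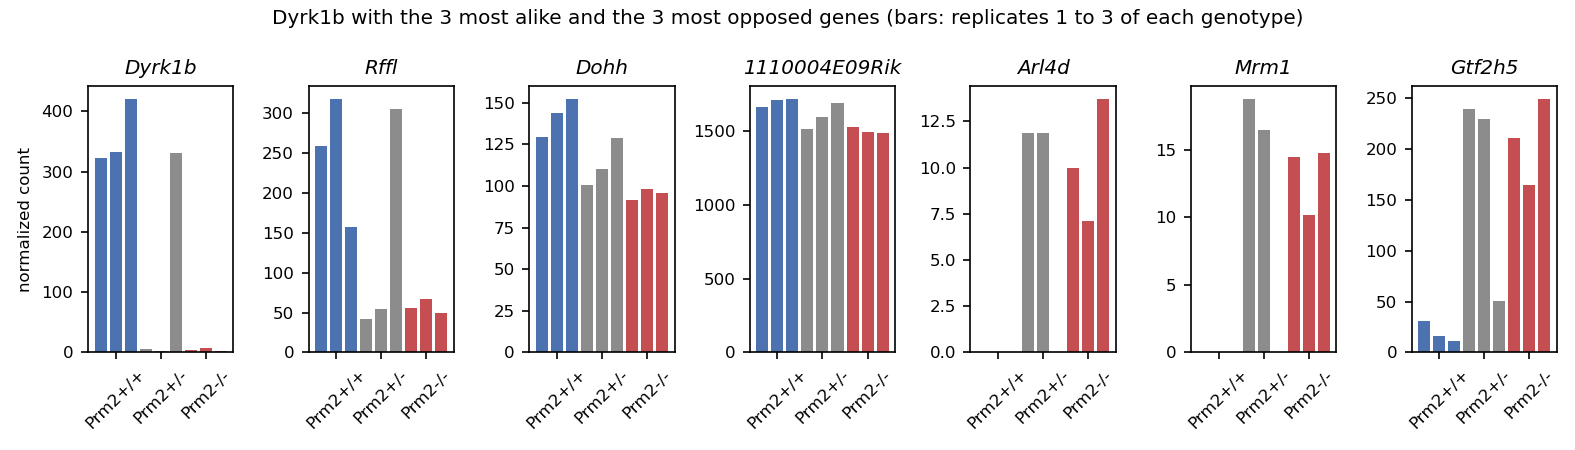
Normalized counts (vertical axes, each from 0) of Dyrk1b, its 3 most alike and its 3 most opposed genes, with 1 bar per library, replicates 1 to 3 from left to right within each genotype. Rffl is high in the 4 libraries where Dyrk1b is high, and Arl4d and Mrm1 are at 0 in them.

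The upstream neighbour of Dyrk1b did not follow it. Fbl had between 82.2 and 114 normalized counts in all 9 libraries, and its LFC of Prm2-/- against Prm2+/+ was -0.01 ± 0.15 (SE, limma adjusted p = 0.995). On the other side, 39064 bp away, Gm45011 had 0.88 to 3.17 normalized counts, too few to show whether it followed Dyrk1b. Dyrk1b has 3 annotated transcripts with 2 coding 3′ ends that are 371 bp apart. Counts of single ends were not analysed here.

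Dyrk1a (ENSMUSG00000022897), the dosage-sensitive kinase of the family known from Down syndrome, lies on chromosome 16 from 94570010 to 94695517 on the plus strand. Prm2 is on the same chromosome. Dyrk1a had 117, 30.0 and 141 normalized counts in Prm2+/+, 91.0, 17.4 and 10.6 in Prm2+/- and 139, 44.6 and 59.1 in Prm2-/-. The 3 genotypes overlapped, and the highest library exceeded the lowest by 13.3-fold. Each genotype held libraries that were several times apart, with means of 96.1 ± 58.5, 39.6 ± 44.6 and 80.8 ± 50.6 (SD, n = 3).

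No difference in Dyrk1a was larger than this spread. Its LFC was -0.15 ± 0.88 (SE) in Prm2-/- against Prm2+/+, with a 95% interval of -2.19 to 1.90 and a limma adjusted p of 0.982. For Prm2+/- against Prm2+/+ the LFC was -1.58 ± 0.88, with an interval of -3.62 to 0.47 (limma adjusted p = 0.842). The intervals are wide, and neither a rise nor a fall of several-fold was excluded by them for Prm2-/-. The annotation gives Dyrk1a 5 coding 3′ ends spread over 29570 bp and an overlapping pseudogene, Gm15971. Trps1, a transcriptional repressor gene, was most alike over the 9 libraries (r = 0.94), followed by Hnrnpc, an RNA-binding protein gene (r = 0.94), and Gm21685 (r = 0.92).

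Dyrk2 (ENSMUSG00000028630), the kinase that also serves as scaffold of a ubiquitin ligase, lies on chromosome 10 from 118855603 to 118870209 on the minus strand. It had 193, 164 and 151 normalized counts in Prm2+/+. In Prm2+/- it had 178, 175 and 189, and in Prm2-/- 172, 154 and 153 normalized counts. All Prm2-/- libraries were below all Prm2+/- libraries, and Prm2+/+ overlapped with both. This separation was small, with an LFC of -0.18 ± 0.12 for Prm2-/- against Prm2+/- (95% interval -0.45 to 0.10, limma adjusted p = 0.977).

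Against Prm2+/+, the LFC of Dyrk2 was -0.08 ± 0.12 in Prm2-/-, with a 95% interval of -0.35 to 0.20 (limma adjusted p = 0.869). 4932442E05Rik overlaps Dyrk2 on the opposite strand and had 3.04 to 13.7 normalized counts. The strand setting of the counting is not given in the sources used here, so reads of both genes may not have been told apart. The genes most alike to Dyrk2 were Nip7 (r = 0.95), which acts in ribosome biogenesis, Srfbp1 (r = 0.95) and Slc35a1 (r = 0.94), a nucleotide sugar transporter.

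Dyrk3 (ENSMUSG00000016526), the kinase of condensate and stress granule dissolution, lies on chromosome 1 from 131127455 to 131138340 on the minus strand. It had the lowest coefficient of variation of any member, a measure that was not corrected for the number of counts behind each gene. Dyrk3 had 610, 613 and 592 normalized counts in Prm2+/+, 550, 637 and 658 in Prm2+/- and 628, 634 and 542 in Prm2-/-. The genotypes overlapped in every comparison, and the coefficient of variation over all 9 libraries was 6.51%, against 9.07% for Dyrk2, 49.5% for Dyrk4, 71.1% for Dyrk1a and 117% for Dyrk1b. Its LFC in Prm2-/- against Prm2+/+ was -0.01 ± 0.10, with a 95% interval of -0.25 to 0.22 (limma adjusted p = 0.988). Alkbh8 (r = 0.95), a tRNA-modifying enzyme, Gpbp1l1 (r = 0.95) and Hacd1 (r = 0.93), which acts in fatty acid elongation, were most alike. The neighbour Eif2d, on the opposite strand 14841 bp away, was at 0 in replicate 3 of Prm2+/+ and at 7.07 in replicate 3 of Prm2+/-, and at 31.5 to 39.5 in the other libraries.

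Dyrk4 (ENSMUSG00000030345) lies on chromosome 6 from 126876020 to 126921839 on the minus strand. Although DYRK4 is known from testis, few counts stood behind it in these 3′-end libraries. Dyrk4 had 4.75, 8.57 and 4.42 normalized counts in Prm2+/+. It had 12.9, 20.1 and 9.72 in Prm2+/- and 15.4, 21.3 and 12.7 in Prm2-/-. All libraries of Prm2+/- and of Prm2-/- lay above all libraries of Prm2+/+, and the former overlapped each other. Recovered counts were 17 in the 3 Prm2+/+ libraries together, 46 in Prm2+/- and 50 in Prm2-/-.

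The difference in Dyrk4 did not pass the test across all genes. Its LFC was 1.36 ± 0.38 (SE) in Prm2-/- against Prm2+/+, with a 95% interval of 0.48 to 2.23 and a limma p of 0.0074 that became 0.495 after adjustment over all 14893 genes. Since Dyrk4 passed the filter on low counts through the genotypes in which it was high, its intervals and the unadjusted p are given as descriptions. The adjusted p was between 0.368 and 0.892 under the alternatives tried. For Prm2+/- against Prm2+/+ the LFC was 1.13 ± 0.38 (interval 0.25 to 2.01, limma adjusted p = 0.842), and for Prm2-/- against Prm2+/- it was 0.22 ± 0.38. The normalized ratio of Prm2+/+ over Prm2-/- was 0.357, with a counting interval of 0.193 to 0.630 that is approximate as for Dyrk1b. Filip1l (r = 0.93), Ppp1r14b (r = 0.93), a phosphatase inhibitor gene, and Gm26782 (r = 0.92) were most alike to Dyrk4. Ppp1r14b had 210 to 220 normalized counts in Prm2+/+, 244 to 267 in Prm2+/- and 250 to 277 in Prm2-/-.

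Both neighbours of Dyrk4 are close. Akap3, which encodes an anchoring protein of the sperm fibrous sheath, lies 1712 bp beyond its 3′ end on the opposite strand. Akap3 had 143, 146 and 129 normalized counts in Prm2+/+, 149, 125 and 106 in Prm2+/- and 281, 273 and 226 in Prm2-/-. All Prm2-/- libraries were above the other 6, whereas Prm2+/+ and Prm2+/- overlapped, which is another order of genotypes than that of Dyrk4. The LFC of Akap3 was 0.89 ± 0.15 (SE) in Prm2-/- against Prm2+/+ (limma adjusted p = 0.142) and 1.04 ± 0.15 against Prm2+/- (limma adjusted p = 0.0723). DESeq2 on the recovered counts called both, with adjusted p of 0.000372 and 1.06e-05 over 9 samples. The latter was also called by limma without replicate 1 of Prm2+/- (adjusted p = 0.0384). Of the 19 alternatives tried, 2 called Akap3 against Prm2+/+ and 3 against Prm2+/-.

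Rad51ap1, a gene of recombination repair, ends 1211 bp upstream of Dyrk4 on the same strand. It had 37.1 to 56.4 normalized counts in Prm2+/+, 201, 188 and 30.9 in Prm2+/- and 38.0, 181 and 52.8 in Prm2-/-. Its 3 high libraries belonged to both mutant genotypes, and each of these genotypes also held low ones. Whether reads of the neighbours entered the count of Dyrk4 was not tested.

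**Figure D3:**
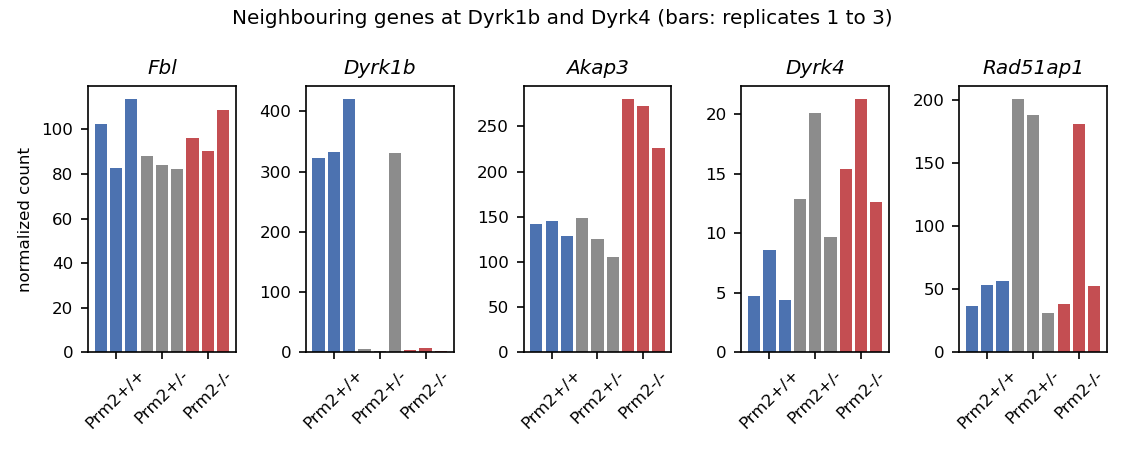
Normalized counts (vertical axes, each from 0) of Dyrk1b with its upstream neighbour Fbl and of Dyrk4 with its neighbours Akap3 and Rad51ap1, with 1 bar per library, replicates 1 to 3 from left to right within each genotype. Fbl stays between 82.2 and 114, while the count of Dyrk1b is high in some libraries and nearly absent in others. Akap3 is high in Prm2-/- alone, whereas Dyrk4 is also high in Prm2+/-.

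Of the 4 members other than Dyrk1b, none (0) was called in any of the 3 comparisons by limma at an adjusted p under 0.05 and an LFC beyond 0.5. Among all tested genes, 0.181% were called in Prm2-/- against Prm2+/+, 0.0806% in Prm2+/- against Prm2+/+ and 0.175% in Prm2-/- against Prm2+/-. At an unadjusted p under 0.05 there was 1 of these 4 (Dyrk4) in each comparison with Prm2+/+ and none (0) in Prm2-/- against Prm2+/-. The share of all tested genes at this p was 7.33% in Prm2-/- and 4.24% in Prm2+/- against Prm2+/+. It was 5.44% in Prm2-/- against Prm2+/-. Both counts of 1 rest on the same Prm2+/+ libraries and on a gene kept through its high genotypes, so nothing is read from them. In the fit to the 6 samples compared, 0.35% of 14278 genes were called in Prm2-/- against Prm2+/+, and Dyrk1b was among them, which is no independent result since this contrast chose it. DESeq2 over 9 samples called 0 of the other 4 in each comparison. Of all 14893 genes it called 101 higher and 30 lower in Prm2-/- against Prm2+/+. It called 29 and 30 in Prm2+/- against Prm2+/+, and 86 and 21 in Prm2-/- against Prm2+/-.

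The libraries of the genotypes compared did not overlap for 2 members in Prm2-/- against Prm2+/+ (Dyrk1b and Dyrk4), for 1 in Prm2+/- against Prm2+/+ (Dyrk4) and for 1 in Prm2-/- against Prm2+/- (Dyrk2). The share of all tested genes without overlap was 14% in Prm2-/- against Prm2+/+, 9.44% in Prm2+/- against Prm2+/+ and 14.7% in Prm2-/- against Prm2+/-. Nothing about the family is read from these counts, since the separation of Dyrk1b in Prm2-/- against Prm2+/+ chose the family and Dyrk4 passed the filter through its high genotypes. The first 2 comparisons share their Prm2+/+ libraries, so the low Prm2+/+ values of Dyrk4 enter both.

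**Figure D4:**
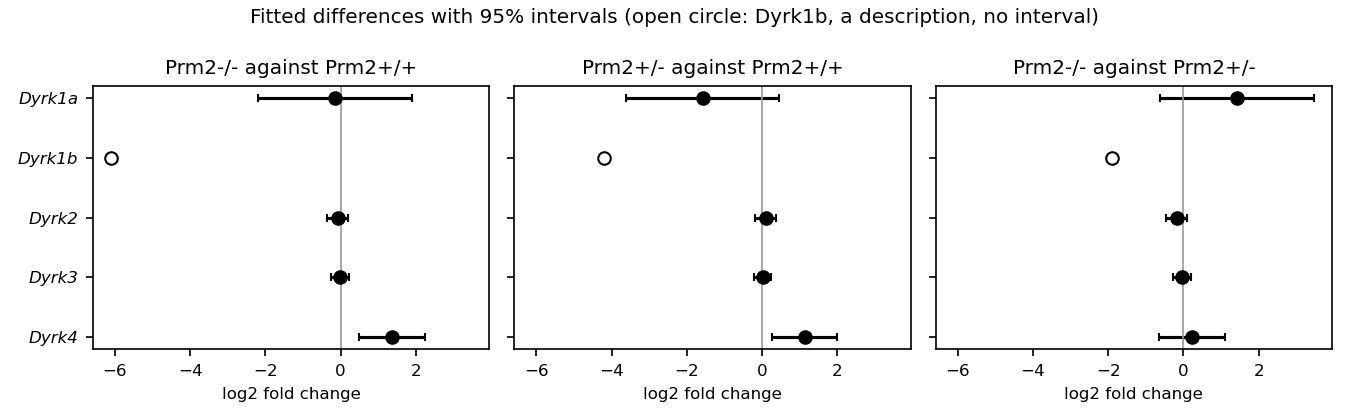
Fitted log2 fold changes (horizontal axes) of the 5 DYRK members in the 3 comparisons, with bars for 95% intervals from limma over 9 libraries. Dyrk1b is an open circle with no interval, since its values chose it. The intervals of Dyrk4 are descriptions, since it passed the filter on low counts through its high genotypes. Those of Dyrk2 and Dyrk3 are narrow around 0, and those of Dyrk1a are wide.

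Related kinases, and genes of partners, targets and pathways of the DYRKs, were read from 5 lists of 55 genes. Of these, 47 had enough counts for a test. None (0) was called by limma in any comparison. At an unadjusted p under 0.05 there were 4 of 47 in Prm2-/- against Prm2+/+ (8.51%, against 7.33% of all tested genes), 3 in Prm2+/- against Prm2+/+ (6.38%, against 4.24%) and 5 in Prm2-/- against Prm2+/- (10.6%, against 5.44%). The 8 genes with too few counts were Srpk3, Spry2, Cdkn1b, Nfatc1, Nfatc4, Gli1, Gli2 and Gli3. The median LFC of each list in Prm2-/- against Prm2+/+ lay between -0.13 and 0.11, with 0.02 for all tested genes.

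Among the related kinases, with 11 of 12 tested and a median LFC of -0.13, Hipk4 had the largest difference. HIPK4 is a kinase of the neighbouring HIPK family that is known from round spermatids. Hipk4 had 22.8, 269 and 23.2 normalized counts in Prm2+/+, 18.8, 17.4 and 24.7 in Prm2+/- and 7.24, 4.06 and 1.06 in Prm2-/-. Every Prm2-/- library was below the other 6, and replicate 2 of Prm2+/+ stood far above all. The LFC of -3.61 ± 0.95 (SE) in Prm2-/- against Prm2+/+ did not pass (limma adjusted p = 0.457), and it was -2.44 without replicate 2 of Prm2+/+.

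Among the binding partners, chaperones and ubiquitin ligases, with 12 of 13 tested and a median LFC of -0.004, Fam53c stood out. FAM53C is a binding partner of DYRK1 kinases. Fam53c had 39.9, 31.1 and 38.7 normalized counts in Prm2+/+, 546, 42.9 and 31.8 in Prm2+/- and 597, 536 and 677 in Prm2-/-. All Prm2-/- libraries and replicate 1 of Prm2+/- were high, which is a different set of libraries from that of Dyrk1b. Its LFC was 4.01 ± 0.92 (SE) in Prm2-/- against Prm2+/+ with a limma adjusted p of 0.377 over 9 samples. In the fit to the 6 samples of this comparison, limma called it (adjusted p = 0.000635), as did limma without replicate 1 of Prm2+/- (adjusted p = 0.00021). DESeq2 called it too (adjusted p = 0.00178 over 9 samples). Of the 19 alternatives tried, 4 called Fam53c in this comparison.

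The DREAM and MuvB complex, which represses cell cycle genes and is assembled after DYRK1A phosphorylates LIN52, had all 13 genes tested and a median LFC of 0.11. Rbbp4, a histone-binding subunit, had the largest LFC (0.80 ± 1.31 SE, limma adjusted p = 0.882), with 28.1 to 776 normalized counts within Prm2-/- alone. Rbl2, the pocket protein p130, was chosen after its values were seen. It had 419, 447 and 558 normalized counts in Prm2+/+, 360, 269 and 300 in Prm2+/- and 270, 318 and 338 in Prm2-/-. All Prm2+/+ libraries were above the other 6. The LFC of Rbl2 was -0.62 ± 0.16 (SE) in Prm2-/- against Prm2+/+ (limma adjusted p = 0.437).

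Of the cell cycle exit substrates, 4 of 5 were tested, with a median LFC of 0.06. Ccnd3, which encodes cyclin D3, had 20.9, 110 and 208 normalized counts in Prm2+/+, 12.9, 17.4 and 15.0 in Prm2+/- and 103, 104 and 151 in Prm2-/-. All Prm2+/- libraries were below the other 6, and replicate 1 of Prm2+/+ was near them. The LFC was 0.57 ± 0.71 (SE) in Prm2-/- against Prm2+/+ (limma adjusted p = 0.833) and 2.89 ± 0.71 in Prm2-/- against Prm2+/- (limma adjusted p = 0.612). The latter was called in the fit to the 6 samples compared (limma adjusted p = 0.00613) and by DESeq2 (adjusted p = 0.00579 over 9 samples). It was also called by limma without replicate 1 of Prm2+/+ (adjusted p = 0.0164). Of the 19 alternatives tried, 4 called Ccnd3 in Prm2-/- against Prm2+/-. In Prm2+/- against Prm2+/+ its LFC was -2.32 ± 0.71 (SE, limma adjusted p = 0.842), and 2 of the 19 alternatives called it.

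For NFAT and hedgehog signalling, the pathways that DYRK1A and DYRK1B modulate, 7 of 12 genes were tested, with a median LFC of -0.12. Nfatc3, which encodes a calcineurin-dependent transcription factor that DYRK phosphorylation keeps out of the nucleus, had the largest difference. It had 93.1, 92.2 and 80.7 normalized counts in Prm2+/+, 83.0, 74.9 and 13.3 in Prm2+/- and 14.5, 66.0 and 78.1 in Prm2-/-. The Prm2-/- libraries were below all Prm2+/+ libraries and overlapped with Prm2+/-, and each mutant genotype held 1 library far below the rest. Its LFC of -1.04 ± 0.80 (SE) in Prm2-/- against Prm2+/+ was within the spread between libraries (limma adjusted p = 0.755). It was -0.30 without replicate 1 of Prm2-/-.

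**Figure D5:**
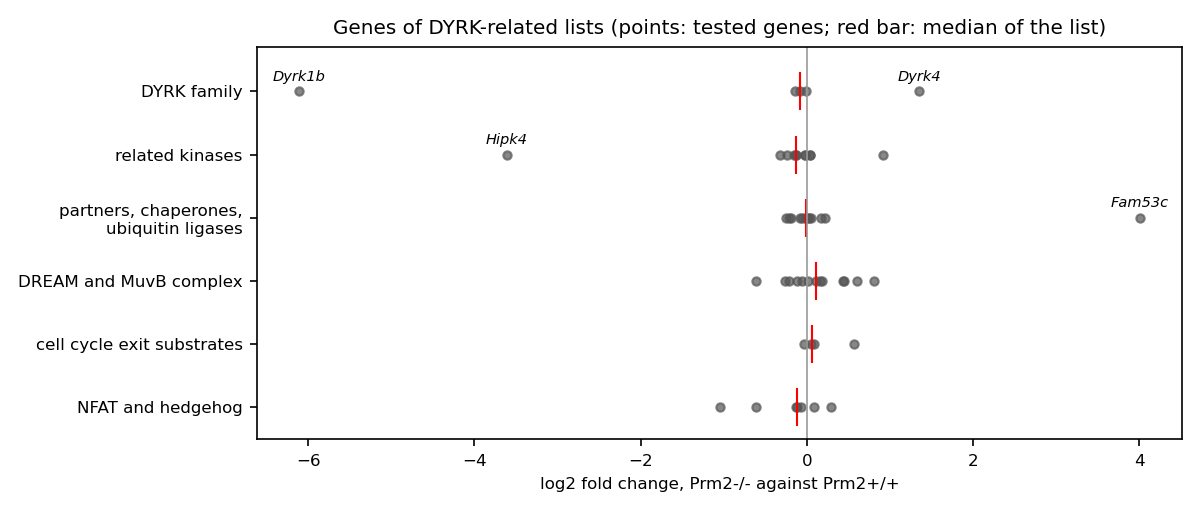
Log2 fold change of Prm2-/- against Prm2+/+ (horizontal axis) for the tested genes of the DYRK family and of 5 lists of related genes (vertical axis), with 1 point per gene and a red bar at the median of each list. The medians are near 0, and Hipk4 (-3.61) and Fam53c (4.01) lie apart from their lists.

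The neighbours of Dyrk1a and Dyrk2 not yet named were low or steady. Dscr3, left of Dyrk1a, had 42.0 to 73.3 normalized counts and Kcnj6, on its right, 6.43 to 21.7. Beside Dyrk2, AC160028.4 had 0 to 1.83 and AC154039.1 had 3.62 to 15.5 normalized counts. Gm25717, left of Dyrk3, was at 0 in all libraries. Levels of different genes were not compared, since the counts were made from 3′ ends and were not set per length.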

How the data were processed

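QuantSeq libraries from testes of 3 males per genotype (Prm2+/+, Prm2+/-, Prm2-/-) were used. Per the labels and the methods, the authors trimmed reads with Trim Galore 0.4.5, mapped them to GRCm38 with HISAT2 2.1, assembled and quantified transcripts with StringTie 1.3.3 and derived gene counts from coverage with its script. What was deposited is a normalized count signal, scaled by the authors with DESeq2 size factors. Within a library, 100% of values were integer multiples of a single step (tolerance 0.01 of a step), and dividing by it gave back the counts before scaling. Replicate 1 of Prm2+/- has a step close to 1, which makes its recovery less certain. Columns without a sample numbered 0. Positions came from GENCODE M21 (38520 entries matched by identifier).

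Genes were kept by edgeR's filterByExpr, and limma (lmFit, eBayes with trend) was fitted to log2 of the normalized count plus 1 over all 9 samples with genotype as the only term. A call needed a Benjamini-Hochberg adjusted p under 0.05 over 14893 genes and an LFC beyond 0.5. Intervals are 95%. On simulated counts for Prm2-/- against Prm2+/+ with 200 of 14893 genes changed, limma recovered 46% of them, with 2 false calls, and 78% of the 8-fold changes. These counts were drawn once, with the dispersion of each gene capped at 1. The shares need not hold for genes that were high or nearly absent within a genotype, as Dyrk1b was.

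Members, lists and tests were chosen with earlier results of these data known. Named genes are the members, their overlapping and adjacent genes, the 3 most alike by Pearson's r on the log2 scale (for Dyrk1b also the 3 most opposed), from each list the gene with the largest LFC of Prm2-/- against Prm2+/+, and Prm2. Rbl2 was added after its values were seen. Some genes of the lists are not reported here and were left out of their counts. Vprbp was read as the older symbol of Dcaf1. Alternatives were other scalings, pseudocounts of 0.5 and 5, other filters, edgeR and DESeq2 on recovered counts, the 6 samples compared, a replicate block and leaving out each library. Software comprised limma 3.58.1, DESeq2 1.42.0 and edgeR 4.0.16 under R 4.3.3, and pandas 2.3.3, numpy 2.4.6, scipy 1.17.1 and matplotlib 3.10.9 under Python 3.11.15.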

Additional observations from a re-analysis of the deposited data

How the results depend on the processing

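Counts of called genes moved with the processing, and the cause was not tested. In Prm2-/- against Prm2+/+ limma called 23 genes higher and 4 lower. When every sample had to hold 10 counts or more, these were 8 and 1. They were 44 higher with the 6 samples compared, 101 and 30 with DESeq2 over 9 samples and 110 and 33 over 6, and 8 lower with a count above 0 as the only filter. In Prm2+/- against Prm2+/+ the 9 higher and 3 lower became 1 and 0, 5 and 6, 29 and 30, and 30 and 23 in the same order, with 8 lower under the last filter. In Prm2-/- against Prm2+/- the 22 higher and 4 lower became 10 and 1, 45 and 7, 86 and 21, and 139 and 40, with 9 lower under the last filter. Leaving out 1 library gave 20 to 60 higher and 2 to 12 lower in Prm2-/- against Prm2+/+, 6 to 40 and 3 to 17 in Prm2+/- against Prm2+/+, and 16 to 44 and 5 to 10 in Prm2-/- against Prm2+/-. Each highest count of higher genes against Prm2+/+ came without replicate 2 of Prm2+/+.

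The labels give replicate numbers and do not say whether same-numbered libraries share anything else, which the following values do not settle. Same-numbered libraries had correlations of deviations between -0.037 and 0.042 (0 of 9 over 0.1), other pairs between -0.038 and 0.046, and 10 of 18 best matches had their own number. With the replicate block limma called 14 higher and 1 lower in Prm2-/- against Prm2+/+, and 3 higher and 3 lower in Prm2+/- against Prm2+/+. In Prm2-/- against Prm2+/- it called 12 higher and 2 lower. Among all of these were 0 members and 0 list genes.

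The 0 members called became 1 (Dyrk1b) in Prm2-/- against Prm2+/+ with the 6 samples compared, in limma and in DESeq2, and 0 to 1 on leaving out a library in both comparisons with Prm2+/+, the 1 being Dyrk1b without replicate 3 of Prm2+/-. The 0 list genes called became 1 (Fam53c) in Prm2-/- against Prm2+/+ with the 6 samples compared and with DESeq2 over 9 or 6, 1 (Ccnd3) in Prm2+/- against Prm2+/+ with DESeq2 over 9, and in Prm2-/- against Prm2+/- 1 (Ccnd3) with the 6 samples compared and with DESeq2 over 9, and 2 (Ccnd3 and Hipk4) with DESeq2 over 6. Leaving out a library gave 0 to 1 in each comparison, the 1 being Fam53c without replicate 1 of Prm2+/- or Ccnd3 without replicate 1 of Prm2+/+.

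Some uncalled LFCs changed sign on leaving out 1 library. In Prm2-/- against Prm2+/+ Dyrk1a ranged from -0.84 (without replicate 2 of Prm2+/+) to 0.26, and was also above 0, at 0.13 and 0.19, on removal of Prm2+/+ replicate 1 and of Prm2-/- replicate 2. Its highest value came without Prm2+/+ replicate 3. In that comparison Dyrk2 ranged from -0.155 to 0.0184, Dyrk3 from -0.0532 to 0.0603, Ccnd3 from -0.37 to 1.26 and Rbbp4 from -0.51 to 1.86. Their change of sign came without replicate 1 of Prm2+/+ for Dyrk2 and Ccnd3 and without replicate 3 of Prm2-/- for Dyrk3 and Rbbp4. Dyrk3 ranged from -0.0324 to 0.0975 in Prm2+/- against Prm2+/+ and from -0.110 to 0.0414 in Prm2-/- against Prm2+/-. The LFC of Dyrk4 against Prm2+/+ stayed between 0.98 and 1.62 in Prm2-/- and between 0.80 and 1.39 in Prm2+/-, where the filter kept it. That of Dyrk1b in Prm2-/- against Prm2+/+ stayed between -6.43 and -5.27, and with edgeR it was -1.67 in Prm2+/- against Prm2+/+ and -4.57 in Prm2-/- against Prm2+/-. Few counts stood behind Dyrk4, Arl4d and Mrm1.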
